A study of Mus musculus with 4 samples.

Results

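The genes described here are 7 transcription regulators at the output side of the circadian clock: the repressor Nfil3 (also called E4BP4), the PAR bZIP activators Dbp, Tef and Hlf, the repressor Ciart (Gm129 or Chrono in older annotations), and the DEC repressors Bhlhe40 and Bhlhe41. They were chosen by gene symbol, and with earlier results of these arrays known, so every value below is a description. The annotation gave them 12 probe sets with 1 symbol each, out of 45101 on the array, and they make up 7 of 18193 annotated genes. Their RNA was measured on Affymetrix Mouse Genome 430 2.0 arrays in ST2, a stromal line of fibroblast-like shape that was derived from the bone marrow of BALB/c mice. The 3 treated groups received low-intensity pulsed ultrasound (LIPUS) at 25 mW per square cm for 20 min. They were then kept at 37 °C for 0.5, 1 or 3 h. The control cells were cultured at 37 °C, and the labels give neither their harvest time nor whether they were handled like the treated dishes. There was 1 array per group, so no spread between cultures was measured, no test was possible, and RNA per cell could not be told apart from the share of cells that held it.

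In the mammalian clock, the activators CLOCK and BMAL1 bind E-box elements and drive the genes of their own repressors, the PER and CRY proteins and the REV-ERB receptors. The same elements drive Dbp, whose protein, like TEF and HLF, activates genes through a site called the D-box. NFIL3 binds the D-box as a repressor, and its own gene is held down by the REV-ERB receptors through ROR elements, so that Nfil3 and Dbp are known to cycle in opposite phase in mouse liver. CIART and the DEC factors repress CLOCK and BMAL1 activity, and the genes of all 3 are themselves targets of the E-box. Outside the clock, NFIL3 is known for its part in the development of innate lymphoid cells.

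The promoters of Nfil3, Dbp, Ciart and Tef are shown because Nfil3 and Dbp carry the main contrast and because Ciart and Tef hold the element through which CLOCK and BMAL1 act. The sequences are those of RefSeq on GRCm38.p6 and run 5′ to 3′ on the gene's strand from 250 bases before the transcript start to 50 bases after it, with matched motifs in capitals. The motifs searched on both strands were the E-box CACGTG, the D-box as TTATGTAA or TTACGTAA, the core of the ROR element as TAGGTCA, and the cAMP response element TGACGTCA. For Tef the window of its second listed start is given.
Nfil3 promoter, chr13:52980990-52981289, minus strand: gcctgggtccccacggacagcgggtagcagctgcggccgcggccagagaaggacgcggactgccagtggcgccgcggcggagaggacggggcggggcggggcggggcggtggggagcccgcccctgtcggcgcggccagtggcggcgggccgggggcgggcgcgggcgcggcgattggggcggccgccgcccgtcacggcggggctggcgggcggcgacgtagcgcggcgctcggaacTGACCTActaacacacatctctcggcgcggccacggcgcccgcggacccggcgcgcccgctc
Dbp promoter, chr7:45704997-45705296, plus strand: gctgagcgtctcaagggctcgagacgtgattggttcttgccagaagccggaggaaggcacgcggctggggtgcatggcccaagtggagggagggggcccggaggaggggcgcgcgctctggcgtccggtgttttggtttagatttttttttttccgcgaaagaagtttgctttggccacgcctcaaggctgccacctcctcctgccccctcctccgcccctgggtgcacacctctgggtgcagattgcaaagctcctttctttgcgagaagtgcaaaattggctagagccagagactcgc
Ciart promoter, chr3:95882179-95882478, minus strand: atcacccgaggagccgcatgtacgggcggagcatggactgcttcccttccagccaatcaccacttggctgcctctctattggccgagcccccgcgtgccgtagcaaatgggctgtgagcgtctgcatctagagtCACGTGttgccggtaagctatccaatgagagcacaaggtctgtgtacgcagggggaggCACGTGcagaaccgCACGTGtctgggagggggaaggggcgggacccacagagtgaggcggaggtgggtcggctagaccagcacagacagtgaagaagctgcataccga
Tef promoter, chr15:81811164-81811463, plus strand: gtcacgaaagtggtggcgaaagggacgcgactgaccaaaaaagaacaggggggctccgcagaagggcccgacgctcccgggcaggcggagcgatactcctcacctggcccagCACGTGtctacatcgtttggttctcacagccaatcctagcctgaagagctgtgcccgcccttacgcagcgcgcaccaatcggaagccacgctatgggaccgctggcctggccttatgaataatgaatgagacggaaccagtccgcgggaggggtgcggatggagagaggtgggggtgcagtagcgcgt
The Ciart window held 3 E-boxes, which began 116, 58 and 44 bases before the start. Each of the 2 Tef windows held 1 E-box, 138 bases before the start in the window shown, and the Bhlhe41 window held 1 at 153 bases. The E-box occurs in 7.15% of the 32851 promoter windows of the mouse table. The capitals in the Nfil3 window are a ROR element core on the opposite strand, 12 bases before the start, a motif found in 2.61% of windows. Dbp held none of the 4 motifs in its window, and Hlf held a cAMP response element 9 bases before its start, as do 1.79% of windows. No D-box was found in any of the 7 windows of the 6 members in the table, against 1.06% of all windows; Bhlhe40 was not matched to a window. A match is a run of letters and not a measured binding site, and a missing match says only that these letters are not in this window.

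The 4 arrays had nearly the same distribution of signal, with medians between 5.21 and 5.25 on the log2 scale and correlations across probe sets of 0.996 to 0.997. Signals below a floor of log2 5.23, the median over the whole table, were taken as too dim to measure and raised to it. The labelled cell type was checked with marker genes: 7 of 8 stromal markers were above the floor on all arrays and Thy1 was below it, whereas Cd3e, Kdr and Epcam were the 1 marker each above it among 6 haematopoietic, 4 endothelial and 4 epithelial genes. As a yardstick for log2 ratios, the difference in ratio between the 2 brightest probe sets of a gene was taken. Its SD over genes, divided by the square root of 2, is called the spread or SD between probe sets. It was 0.106 at 0.5 h, 0.157 at 1 h and 0.137 at 3 h over 5071 to 5105 genes. Both probe sets share the same arrays and cultures, so this SD holds no difference between cultures and is not the full error of a ratio. Measures of the labelling reaction differed between arrays. Probe sets for 18S ribosomal RNA had median log2 ratios to the control of 0.96, 1.91 and 1.79 at 0.5, 1 and 3 h, and 12 bacterial poly-A controls had −0.04, 0.32 and 0.37. The 5′ minus 3′ log2 signal of Gapdh, a sign of RNA integrity, differed from the control by −0.06, −0.16 and −0.16. Their part in the values below was not tested.

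Nfil3 was the 1 clock output gene past 2-fold at any time. Signals on the log2 scale were 7.99 in control cells and 8.73, 9.13 and 8.38 in cells taken 0.5, 1 and 3 h after LIPUS. They were thus higher on each LIPUS array than on the control array, with the top value at 1 h. The log2 ratios to the control, computed before rounding, were 0.73, 1.14 and 0.39, or 1.66-fold, 2.20-fold and 1.31-fold, and each exceeded the spread between probe sets at its time. Nfil3 rested on 1 probe set, so no other probe set of the gene bears on its course. By the rule of a 2-fold difference, 1 of 6 measured members rose at 1 h, against 0.191% of 11497 genes, and 0 members fell, against 0.0% of genes. At 0.5 h, 0 of 7 measured members rose and 0 fell, against 0.138% and 0.0% of 11574 genes, and at 3 h 0 of 7 rose and 0 fell, against 0.0691% and 0.0%. These 7 include Hlf, whose ratios at 0.5 and 3 h were bounds because its control signal lay under the floor. Ranked from the highest ratio downwards, Nfil3 stood at place 31 of 11574 genes at 0.5 h, 18 of 11497 at 1 h and 194 of 11574 at 3 h. Measured against the mean of the other 3 arrays in place of the control, which puts other LIPUS arrays into the reference, Nfil3 was at 0.76 at 1 h, short of the rule, and at −0.23 at 3 h.

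**Figure D1:**
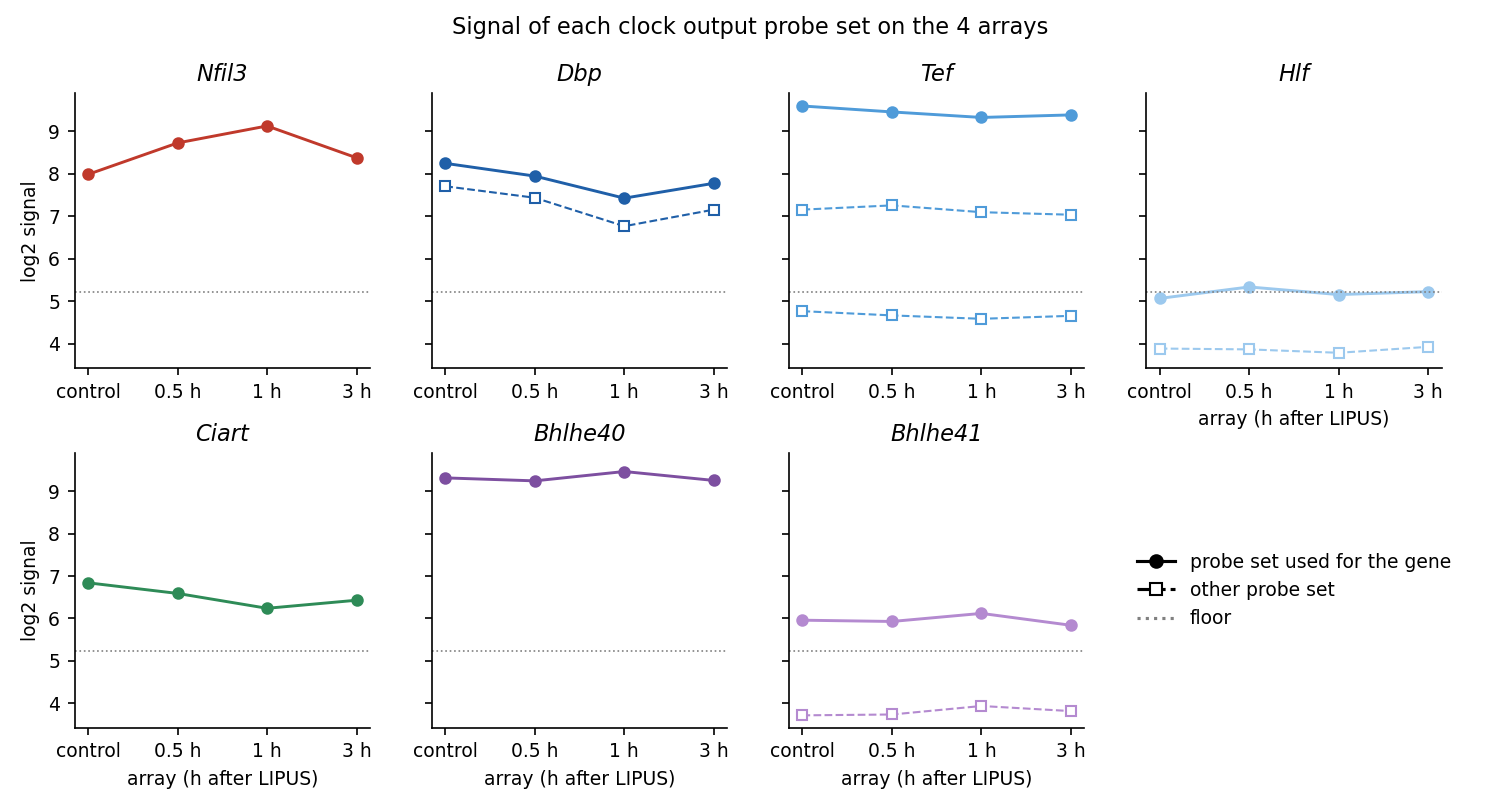
Log2 signal of the 12 probe sets of the 7 clock output genes on each array, in order from the control through 0.5, 1 and 3 h after LIPUS (the time axis is not to scale). Filled circles with solid lines are the probe set used for the gene, open squares with dashed lines are its other probe sets, and the dotted line is the floor at 5.23. Nfil3 is highest at 1 h at 9.13, both Dbp probe sets are lowest there at 7.43 and 6.77, and Hlf lies at the floor.

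Dbp, a PAR bZIP activator with a strong daily rhythm in mouse liver, took the opposite course. By its brighter probe set the log2 signal was 8.25 in control cells and 7.95, 7.43 and 7.78 at the successive times after LIPUS. Its other probe set read 7.71, 7.44, 6.77 and 7.16 in the same order. Both probe sets were lower on every LIPUS array than on the control array, and both were lowest at 1 h. The log2 ratios to the control were −0.30, −0.82 and −0.47 for the brighter probe set and −0.27, −0.95 and −0.56 for the other, so at 1 h the signal was 0.567 or 0.519 times that of the control. None of these ratios passed the 2-fold rule, and the 2 probe sets differed by less at each time than the SD between probe sets. The brighter one carries a suffix that Affymetrix gives to probes shared by several transcripts. Of 11497 genes at 1 h, Dbp stood at place 5 from the lowest ratio, and none of the genes passed 2-fold downwards. It stood at place 197 from the lowest at 0.5 h and 71 at 3 h, both of 11574 genes.

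Tef and Hlf, the other PAR bZIP genes, showed less. The Tef probe set used had log2 signals of 9.60, 9.46, 9.33 and 9.39 in the control and at 0.5, 1 and 3 h, with ratios of −0.15, −0.28 and −0.21. All 3 LIPUS arrays were below the control, by between 1 and 2 SDs of the spread between probe sets. A further Tef probe set above the floor had ratios of 0.10, −0.06 and −0.13, so the 2 did not share a direction at 0.5 h, and the third lay under the floor on all arrays. Hlf, known as a marker of blood stem cells, had signals of 5.07, 5.34, 5.16 and 5.23, above the floor on 2 of 4 arrays. Its ratio was at least 0.11 at 0.5 h, where the control lay under the floor, could not be formed at 1 h with both arrays under the floor, and at 3 h the signal lay at the floor itself. Its other probe set was under the floor throughout.

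The contrast between the repressor and the activators was therefore taken over Dbp and Tef, which were above the floor on all arrays. Nfil3 minus the mean log2 ratio of Dbp and Tef was 0.96 at 0.5 h, 1.69 at 1 h and 0.73 at 3 h. The mean over Dbp and Tef was −0.22, −0.55 and −0.34 at those times. Against Dbp alone the difference was 1.03, 1.96 and 0.86, that is, the ratio of Nfil3 to Dbp signal was 3.88 times its control value at 1 h. Against Tef alone it was 0.88, 1.41 and 0.60. The control array enters each of these values. With the mean of the other 3 arrays as the reference, the contrast with Dbp and Tef was 0.15, 1.12 and −0.15.

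**Figure D2:**
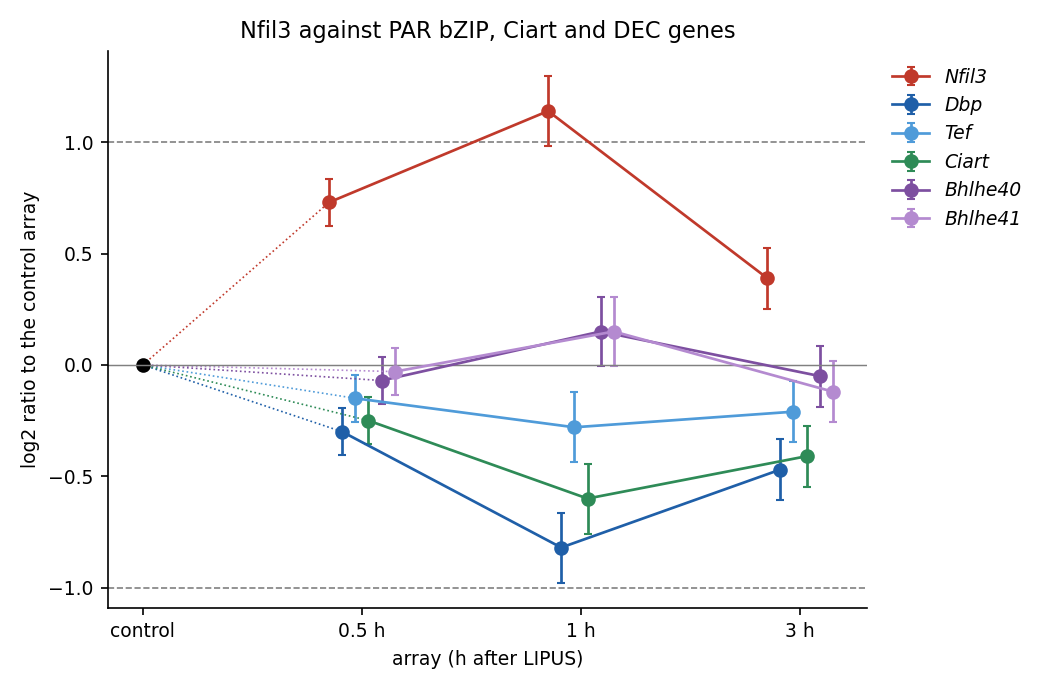
Log2 ratio of each LIPUS array to the control array for 6 clock output genes by the probe set used for the gene, with points set slightly apart at each time and the control at 0. Bars are plus or minus 1 SD between probe sets of a gene at that time, not a spread between cultures, and dashed lines mark 2-fold. Nfil3 peaks at 1.14 at 1 h, Dbp and Ciart have their lowest values there at −0.82 and −0.60, and the DEC genes stay between −0.12 and 0.15.

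Ciart, which represses CLOCK and BMAL1 activity by recruiting histone deacetylase, followed a course like that of Dbp. It read 6.84 on the log2 scale in control cells and 6.59, 6.24 and 6.43 at the successive times after LIPUS. All LIPUS arrays lay below the control, and the lowest value was at 1 h. The ratios were −0.25, −0.60 and −0.41, short of 2-fold, and the 1 h value was 0.660 times the control. At 1.5-fold, or 0.58 on the log2 scale, Dbp and Ciart were the 2 of 6 measured members on the low side at 1 h, against 0.331% of all genes, and Nfil3 was the 1 on the high side, against 0.948%. At 0.5 h Nfil3 alone was past 1.5-fold, against 0.372% of genes on the high side and 0.104% on the low side, and at 3 h no member was past it in either direction, against 0.346% high and 0.181% low.

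The DEC genes Bhlhe40 and Bhlhe41 stayed near the control. Bhlhe40, a repressor also induced by hypoxia and cytokines, had log2 signals of 9.31, 9.24, 9.46 and 9.25 in the control and at 0.5, 1 and 3 h. Bhlhe41, its close paralogue, had 5.96, 5.93, 6.12 and 5.84. Both were highest at 1 h, with ratios of 0.15 each, less than 1 SD between probe sets there. Their ratios at 0.5 h were −0.07 and −0.03 and at 3 h −0.05 and −0.12. The second Bhlhe41 probe set was under the floor on all arrays. Over the measured members together, the median log2 ratio was −0.07, −0.06 and −0.12 at the 3 times, against 0.01, 0.02 and 0.01 over all genes. At those times 5 of 7, 3 of 6 and 5 of 7 lay below 0, against 46.9%, 45.1% and 47.5% of all genes. The members not below 0 at 0.5 and 3 h were Nfil3 and Hlf, the latter by a bound.

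**Figure D3:**
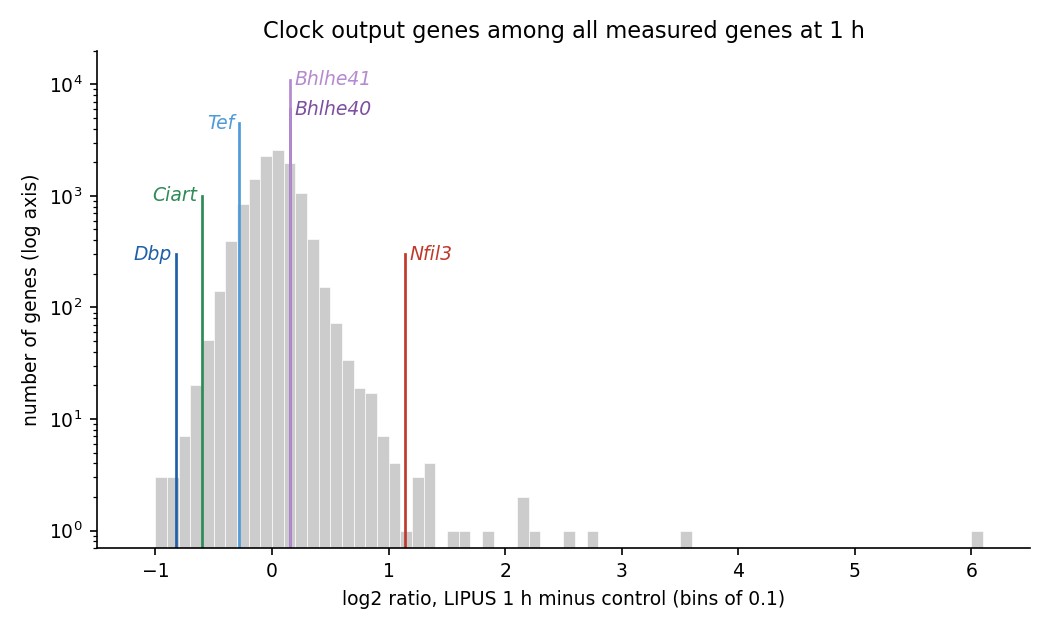
Distribution of the log2 ratio of the LIPUS 1 h array to the control array over 11497 genes in bins of 0.1, with the number of genes on a log axis, and vertical lines at the ratios of 6 clock output genes (line heights only separate the names). Nfil3 at 1.14 lies in the sparse upper tail and Dbp at −0.82 at the lower edge, where no gene reaches −1.

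Steps between LIPUS arrays do not use the control. For LIPUS 1 h minus LIPUS 0.5 h, Nfil3 differed by 0.40, Dbp by −0.52, Ciart by −0.35, Tef by −0.13, Bhlhe40 by 0.22 and Bhlhe41 by 0.19. For LIPUS 3 h minus LIPUS 1 h, Nfil3 differed by −0.75, Dbp by 0.35, Ciart by 0.19, Tef by 0.07, Bhlhe40 by −0.20 and Bhlhe41 by −0.27. By the probe sets used, the 2 steps had opposite signs for each of these 6 genes, and they share the 1 h array, which enters them with opposite sign. The later step of Tef, at 0.07, was under the SD between probe sets of 0.105, and its other probe set above the floor had −0.17 and −0.06, with no change of sign. No member passed 2-fold in either step, against 0.0348% of 11507 genes higher and 0.00869% lower in the earlier step and 0.0% of 11494 higher and 0.087% lower in the later one. Past 1.5-fold in the later step, Nfil3 was lower, against 0.452% of genes, and no member was higher, against 0.0174%. In the earlier step no member was past 1.5-fold, against 0.348% of genes higher and 0.104% lower. Among all genes Nfil3 stood at place 26 from the lowest for LIPUS 3 h minus LIPUS 1 h, and Dbp at place 23 from the lowest for LIPUS 1 h minus LIPUS 0.5 h.

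**Figure D4:**
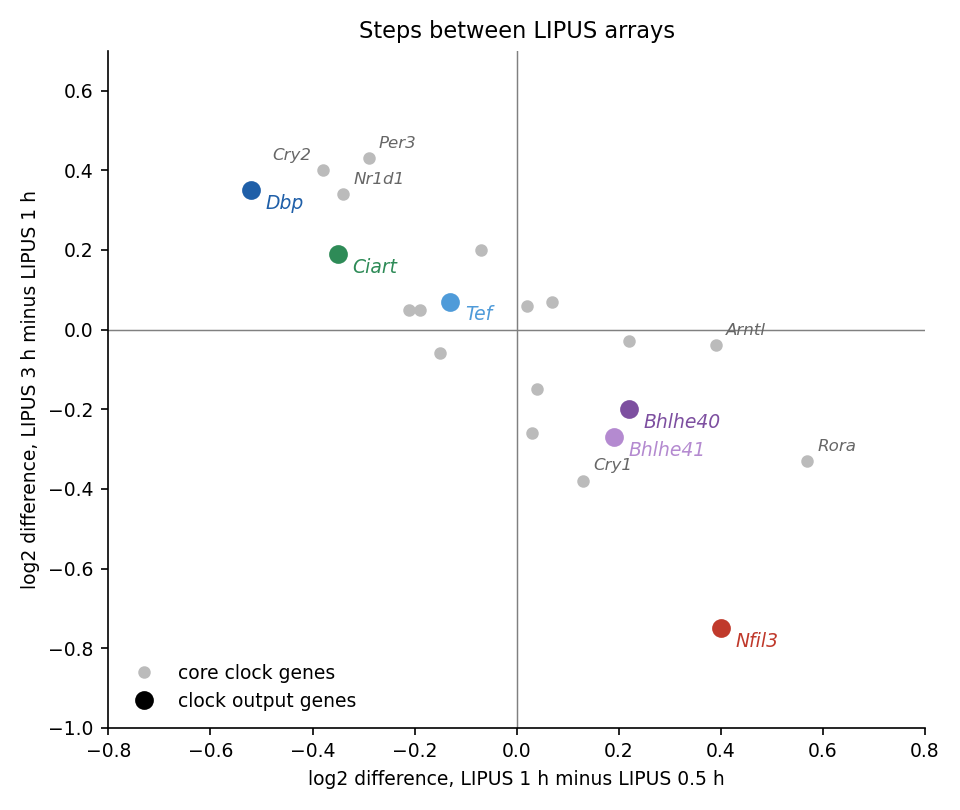
Log2 difference between LIPUS 3 h and LIPUS 1 h (vertical) against that between LIPUS 1 h and LIPUS 0.5 h (horizontal) for 6 clock output genes (large coloured points) and 15 measured core clock genes (small grey points, some named). The 1 h array enters both axes with opposite sign, which by construction favours the falling diagonal. Nfil3 lies at 0.40 and −0.75, and Dbp at −0.52 and 0.35.

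The core clock genes around these outputs were measured for 15 of a list of 20. None passed 2-fold at any time. Few of all genes did: 0.138%, 0.191% and 0.0691% on the high side at 0.5, 1 and 3 h, and 0.0% on the low side. The median log2 ratio of the core clock genes was −0.07, −0.22 and −0.18, against 0.01, 0.02 and 0.01 over all genes. By the probe sets used, Cry2 and Nr1d1 were past 1.5-fold at 1 h on the low side, against 0.331% of all genes. Arntl was past it there on the high side, against 0.948%. At 3 h Arntl alone was past it, against 0.346% of all genes on the high side and 0.181% on the low side. The probe sets of Csnk1d did not share a direction. The one used had a ratio of 0.18 at 1 h, and the others had −0.57, −0.49, −0.60 and −0.11, of which −0.60 is past 1.5-fold. Cry2, a repressor of CLOCK and BMAL1, had log2 signals of 6.70, 6.28, 5.90 and 6.30 in the control and at 0.5, 1 and 3 h, with ratios of −0.42, −0.81 and −0.41. Nr1d1, which encodes the receptor REV-ERB alpha that represses Nfil3 and Arntl, had 7.84, 7.51, 7.17 and 7.51, with ratios of −0.34, −0.67 and −0.33. Both were lower than the control on every LIPUS array and lowest at 1 h. Arntl, the gene of BMAL1, had 6.69, 6.99, 7.39 and 7.35, with ratios of 0.30, 0.70 and 0.66. Arntl was thus higher than the control on every LIPUS array, but its second probe set, above the floor only at 1 h, had a ratio of at least 0.07 there. Per1, the period gene that answers many stimuli within the hour, was at −0.38, −0.45 and −0.26, and its relative Per2 at 0.03, 0.06 and −0.20.

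**Figure D5:**
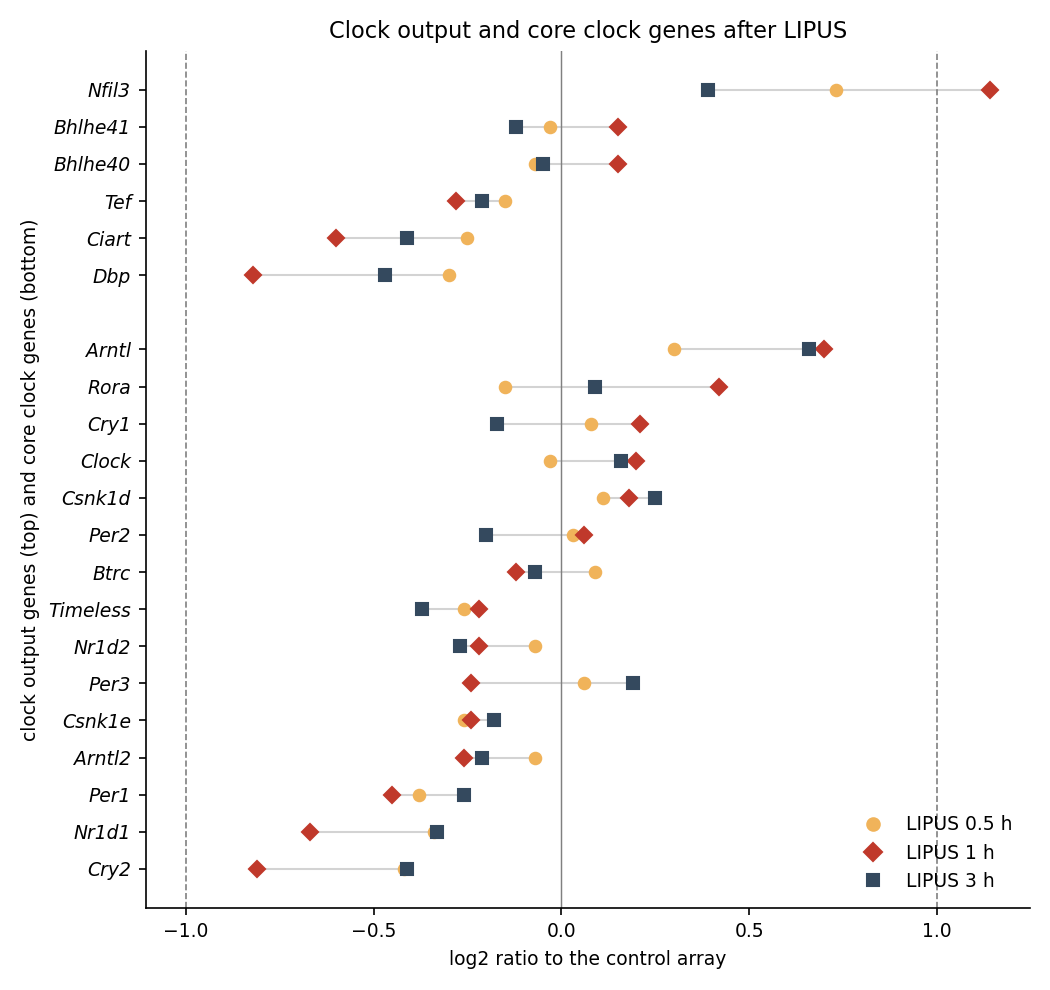
Log2 ratio to the control array at 0.5 h (circles), 1 h (diamonds) and 3 h (squares) after LIPUS for 6 clock output genes (upper block) and 15 measured core clock genes (lower block), each block ordered by the 1 h ratio, with dashed lines at 2-fold. Each gene is shown by its probe set of highest mean signal. Nfil3 at 1 h is the 1 point beyond a dashed line. Arntl is the highest core clock gene at 1 h at 0.70, and Cry2 and Nr1d1 are the lowest at −0.81 and −0.67.

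Clock genes, some of the members among them, were also sorted by the element known to drive them. The share of all genes with a ratio below 0 was 46.9%, 45.1% and 47.5% at 0.5, 1 and 3 h. The 4 measured genes of the ROR element were Nfil3, Arntl, Clock and Cry1. Their median log2 ratios were 0.19, 0.45 and 0.28 at 0.5, 1 and 3 h, with 1, 0 and 1 of the 4 below 0. Nfil3 is itself on this list, so the medians partly restate its values and those of Arntl given above. By the probe sets used, Clock had ratios of −0.03, 0.20 and 0.16, and Cry1 had 0.08, 0.21 and −0.17. The probe sets of Clock did not share a direction at 1 h. Besides the one used, 1 had 0.05, 0.24 and 0.24, and another had −0.22, −0.06 and 0.04. The 8 measured genes of the E-box, among them Dbp, Nr1d1, Per1 and the DEC genes, had −0.07, −0.08 and −0.23, with 6, 4 and 8 of the 8 below 0. That list did not hold Ciart, and with Ciart added after the values were seen the medians were −0.07, −0.22 and −0.26, with 7, 5 and 9 of 9 below 0. The 6 measured genes of the D-box, through which NFIL3 and the PAR bZIP factors act, had −0.11, −0.23 and −0.23, with 4 of the 6 below 0 at each time. Of these D-box genes, Nr1d1 was past 1.5-fold at 1 h on the low side, against 0.331% of all genes. The others, Per1, Per2, Per3, Nr1d2 and Rora, were not past it at any time. Genes can stand under more than one element, so the medians are not independent. Of the PAR bZIP targets known from liver, kidney and brain, Pdxk and Alas1 were measured, with ratios between −0.15 and 0.08.

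Over all genes at 1 h, 0.948% were past 1.5-fold and 0.191% past 2-fold on the high side. Among relatives of the members, Cebpb, a C/EBP family bZIP factor, had ratios of 0.26, 0.60 and 0.10, and was the 1 of 5 measured family genes past 1.5-fold, at 1 h. Hes1, a bHLH repressor related to the DEC genes, had −0.01, 0.90 and −0.05 and was the 1 of 5 measured HES and HEY genes past 1.5-fold. Klf10, a zinc finger factor under clock control in liver, rose at 1 h with a ratio of 1.03, as the 1 of 6 measured genes rhythmic in many tissues past 2-fold. Of 5 measured stimulus-induced genes that respond when the clock is reset, Fos and Egr1 rose at both 0.5 h and 1 h, by at least 3.59 and at least 2.54 for Fos and by 3.16 and 2.16 for Egr1 on the log2 scale. At 0.5 h 4 of the 5 were past 1.5-fold on the high side, against 0.372% of all genes, the others being the phosphatase gene Dusp1 at 0.98 and Ier2 at 0.75. The remaining measured gene, Nr4a1, had ratios of −0.03, −0.28 and −0.52 at 0.5, 1 and 3 h. Fos and Egr1 were the 2 past 2-fold at 0.5 h, against 0.138%. These 2 had their highest values at 0.5 h, whereas Nfil3 was highest at 1 h.

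Likeness of course was measured as the distance between genes over the 3 log2 ratios, among 11014 genes above the floor on all arrays. Nearest to Nfil3 were Hoxb6, a homeobox factor, at a distance of 0.115, Zfp36l1, an RNA decay factor, at 0.218, Tent5a, a poly-A polymerase, at 0.245, Khdc4, an RNA-binding protein gene, at 0.284, and Purg at 0.288. Hoxb6 had ratios of 0.81, 1.05 and 0.36. Nearest to Tef, the PAR bZIP gene with the brightest probe set, were Lhx6, Slc11a2, Fto, Adck5 and Cables2, at distances of 0.0208 to 0.0252, in a range of small ratios that many genes share. In a search added after the values were seen, the gene nearest to Dbp was Cry2 at 0.144, followed by B3galt5 at 0.155 and by the mitotic kinase genes Plk1 and Nek2 at 0.174 each and Acsbg1 at 0.174. Nr1d1 stood at place 12, Ciart at place 14, Per1 at place 114 and Arntl at place 10966 of 11013 genes from Dbp. These distances restate the ratios given above. Dbp stood at place 5 from the lowest ratio at 1 h, so few genes had ratios in its range. All these courses share the 1 control array.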

How the data were processed

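Total RNA of 4 ST2 cultures, 1 per group, was labelled from 500 ng with a kit that primes at the poly-A tail, after an RNA integrity number above 9.5 was required, per the labels' protocols. Each probe set has 1 deposited value per array, taken as log2 from its range of 1.53 to 14.48 in the control. Background correction, summary and scaling are not given in the sources used here, nor are detection calls, and a method that compresses ratios would carry over.

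Gene names came from the platform annotation, updated by Entrez number to GRCm38.p6 symbols for 34741 of 34945 probe sets with 1 symbol. 64 control probe sets were left out, and the probe set of highest mean signal stood for a gene. The floor was the median of all values. A ratio was formed where at least 1 of 2 arrays was above it, and is a lower bound in size ("at least") where the other was not. Rose and fell mean a log2 ratio of 1 or more in size. Members, gene lists and comparisons were chosen with earlier results of these data known. Named besides the members were list genes past 2-fold, the up to 4 largest past 1.5-fold per list and time, and any core clock gene. The 5 genes of nearest course to Nfil3 and to Tef were also named. Outside this rule, Nr4a1, Pdxk, Alas1, some cell type markers and the genes nearest to Dbp were given. Of the gene lists, 20 core clock, 7 D-box, 9 E-box, 6 ROR element, 7 PAR bZIP target, 7 rhythmic, 6 C/EBP, 7 HES and HEY and 7 stimulus-induced genes were sought. The count of genes past 2-fold was checked on simulated data, with small noise and planted shifts larger than the rule in bright genes. That checks the counting only. It does not show how far arrays of separate cultures differ without treatment. Python 3.11.15, numpy 2.4.6, pandas 2.3.3, R 4.3.3 and limma 3.58.1 (quantile and cyclic loess scaling) were used.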

Additional observations from a re-analysis of the deposited data

How the results depend on the processing

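No paired analysis was possible because each group had 1 array. Over 9 alternatives to the floor, scaling, probe sets and reference, the 1 h log2 ratio stayed above 0 for Nfil3 (0.76 to 1.16) and below 0 for Dbp (−0.95 to −0.53) and Tef (−0.32 to −0.06), and over 8 it stayed below 0 for Ciart (−0.61 to −0.38). Of 250 recalculated main values, 226 kept within the spread between probe sets or within 1.5 times the count, and 24 did not. Some of the 226 could not move, so this tally is not a measure of robustness. Nfil3 has 1 probe set and lay above each floor used, so those choices return the same value. A count of 0 at 2-fold stays 0 at 3-fold.

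Against the mean of the other 3 arrays, Nfil3 was at 0.23, 0.76 and −0.23 at 0.5, 1 and 3 h, the count of members higher at 1 h was 0, Nfil3 minus the PAR bZIP mean was 0.15, 1.12 and −0.15, and the core clock median at 3 h was 0.00. Dbp and Ciart at 0.5 h were then at 0.13 and 0.09. With the floor at the 25th percentile or with none, Hlf enters that mean and the contrast was 0.79, 1.47 and 0.56. With the floor at the 75th percentile only Tef is left at 1 h, and it was 1.41. With second brightest probe sets it was 0.82 at 0.5 h. Without a floor the core clock median at 1 h was −0.04. At 1.5-fold, 1 member was higher at 0.5 h, 2 were lower at 1 h and 1 was past it from 1 h to 3 h, and core clock genes numbered 1 higher and 2 lower at 1 h and 1 higher at 3 h. At 3-fold, 0 members were higher at 1 h. The E-box list with Ciart was added after the data were seen. Median centring, quantile and cyclic loess scaling moved no main value beyond these bounds. Precision is limited by the 4 arrays, and for Hlf by its signal at the floor.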
